A study of Mus musculus with 8 samples.

Results

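Amino acid transporters are membrane proteins that carry amino acids and related small molecules into, out of and within the cell. The transporter genes described here were those of 7 solute carrier families (Slc1a, Slc3a, Slc6a, Slc7a, Slc36a, Slc38a and Slc43a), found by their gene symbols. They comprised 58 of the 18193 genes tested, read by 118 of 45101 probe sets, and 1 further probe set that named several genes was left out. Each gene was represented by the probe set of highest mean over the 8 arrays.

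RNA from sorted mouse DN3 thymocytes was measured on 8 Affymetrix arrays in 4 groups of 2. Lineage-negative thymocytes of wild-type (WT) or Ikaros-deficient (IkL/L) mice were grown on OP9 DL1, stromal cells that display a Notch ligand of the Delta-like kind, in medium with glutamine and serum. Both genotypes were exposed for 16 h either to MRK-003, an inhibitor of gamma-secretase (GSI, 5 mM as labelled), or to its vehicle DMSO, and DN3 cells (Lin-CD44-CD25+) were then sorted. This gave a DMSO and a GSI group in each genotype, so that the response to GSI could be set side by side in both. All 4 groups shared the stroma, the medium, the sort and a two-cycle labelling of small RNA amounts. The age of the mice is not given in the labels, and nothing there says whether the 2 arrays of a group came from separate animals or cultures, so that p-values measure the spread between these arrays, which may be technical.

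DN3 cells are T cell precursors that rely on Notch signals, and gamma-secretase frees the intracellular part of the Notch receptor. Ikaros, encoded by Ikzf1, is a zinc finger transcription factor. Growing T cell precursors take up large neutral amino acids, glutamine and arginine through a small set of carriers. Several of these, the light chains of the Slc7a family, work only when joined to a heavy chain encoded by Slc3a2 or Slc3a1. Lysosomal carriers report amino acid supply to the kinase complex mTORC1, and cells short of amino acids raise a transcription programme led by ATF4.

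The arrays had medians between 5.25 and 5.33 on the log2 scale, and their number limits the precision of every value. Dtx1, a Notch target, fell by 4.38 ± 0.14 (SE) under GSI on average over both genotypes. Ikzf1 was lower in IkL/L under DMSO by a log2 difference of -0.90 ± 0.14 (limma adjusted p = 0.0222). Under GSI the Ikzf1 difference between genotypes was -0.43 ± 0.14 and was not called (adjusted p = 0.298). The 12 measured DN3 markers had means of 10.72 to 11.10 per array and none was near background, although Il2ra, which encodes the sorted marker CD25, read 11.57 to 12.03 under DMSO and 9.42 to 9.73 under GSI. Markers of OP9 stroma averaged 7.02 to 7.70 on the 4 arrays numbered 1 and 6.14 to 6.94 on the 4 numbered 2, over 20 genes of which 6 were near background and 0 were called by limma for GSI on average or within a genotype (0, 0 in WT and 2 in IkL/L at an unadjusted p under 0.05). The 3' minus 5' difference of the GAPDH control probe sets, a measure of RNA integrity and labelling, was 1.71 and 2.12 under DMSO and 2.20 and 3.08 under GSI in WT, and 1.87 and 2.47 under DMSO and 3.09 and 3.03 under GSI in IkL/L. Each measure was also entered as a covariate. Where that ended the call of a transporter or moved a count of called transporters by over 1.5 times, this is stated. In bulk RNA, fewer cells of a type and less RNA per cell cannot be told apart.

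Of the 58 transporter genes, 26 reached a level above background in at least 1 group and 32 did not. Background was set at a log2 value of 5.93, the 90th percentile of the highest group mean among 42 genes of other tissues. The median of these highest group means was 4.14 and the largest was 10.91, so the split depends on the gauge chosen. With the median of all probe sets, 5.30, as the gauge, 30 transporter genes were above background and 28 near it. Most detected genes came from the Slc38a family of sodium-coupled neutral amino acid carriers, with 7 of 9 above background, and from Slc6a, with 6 of 18, and Slc7a, with 5 of 15. All 3 Slc43a genes were above background, against 2 of 4 Slc36a, 2 of 7 Slc1a and 1 of 2 Slc3a genes. The detected Slc3a gene was Slc3a2, the heavy chain of the lymphoid exchangers, whereas Slc3a1, the heavy chain best known from kidney, was near background. The other genes near background included the neuronal and glial glutamate carriers Slc1a1, Slc1a2, Slc1a3, Slc1a6 and Slc1a7. The monoamine carriers Slc6a3 and Slc6a4, the gamma-aminobutyric acid carriers Slc6a11 and Slc6a13, and the glycine carrier Slc6a5 were near background as well. So were Slc6a7, Slc6a12, Slc6a14, Slc6a15, Slc6a16, Slc6a18, Slc6a21, Slc7a2, Slc7a3, Slc7a8, Slc7a9, Slc7a10, Slc7a12, Slc7a13, Slc7a14, Slc7a15, Slc36a2, Slc36a3, Slc38a4 and Slc38a5. Slc7a11 also lay below the gauge of 5.93 in every group and is described with the called genes. Its IkL/L GSI mean of 5.58 was above the median of all probe sets. Probe sets differ in brightness, so that these levels do not rank the genes by RNA abundance.

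**Figure D1:**
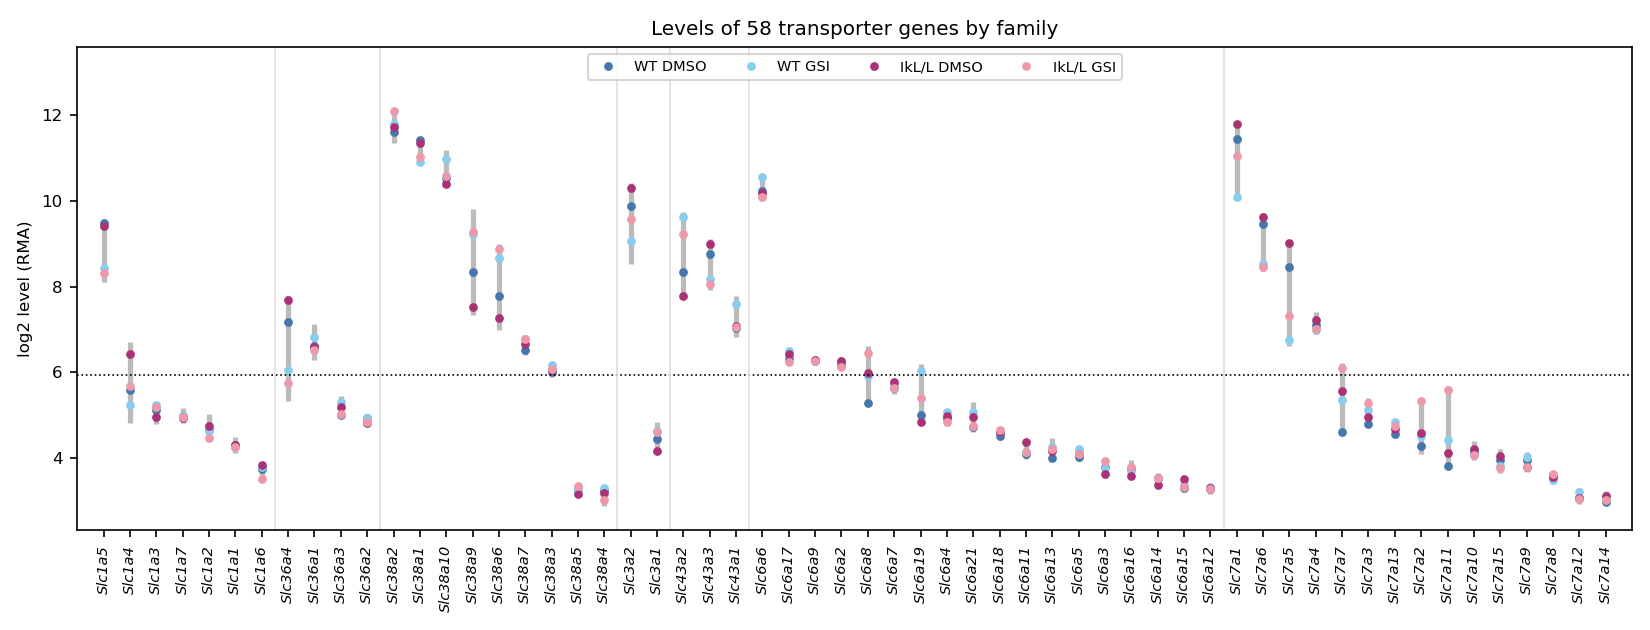
Log2 RMA level of each of the 58 transporter genes, grouped by family (vertical axis, log2; horizontal axis, gene). Points are the group means of 2 arrays, grey bars span the lowest to the highest array, and the dotted line marks the background gauge of 5.93. 26 genes have at least 1 group mean above the line.

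GSI changed 14 of the 58 transporter genes on average over both genotypes (limma, Benjamini-Hochberg adjusted p under 0.05 over all genes), 7 of them upward and 7 downward. That share, 24.1%, was close to the 23.3% of all genes called in the same comparison, so the number of called transporters is no result about transporters as a class. The median log2 difference of the 58 genes was 0.04, against -0.002 over all genes. The genes that fell included the exchanger light chains Slc7a5 and Slc7a6, the neutral carriers Slc1a5 and Slc38a1 and the cationic carrier Slc7a1. The genes that rose included the neutral carriers Slc43a2 and Slc38a6, the lysosomal carrier Slc38a9 and the cystine carrier Slc7a11.

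**Figure D2:**
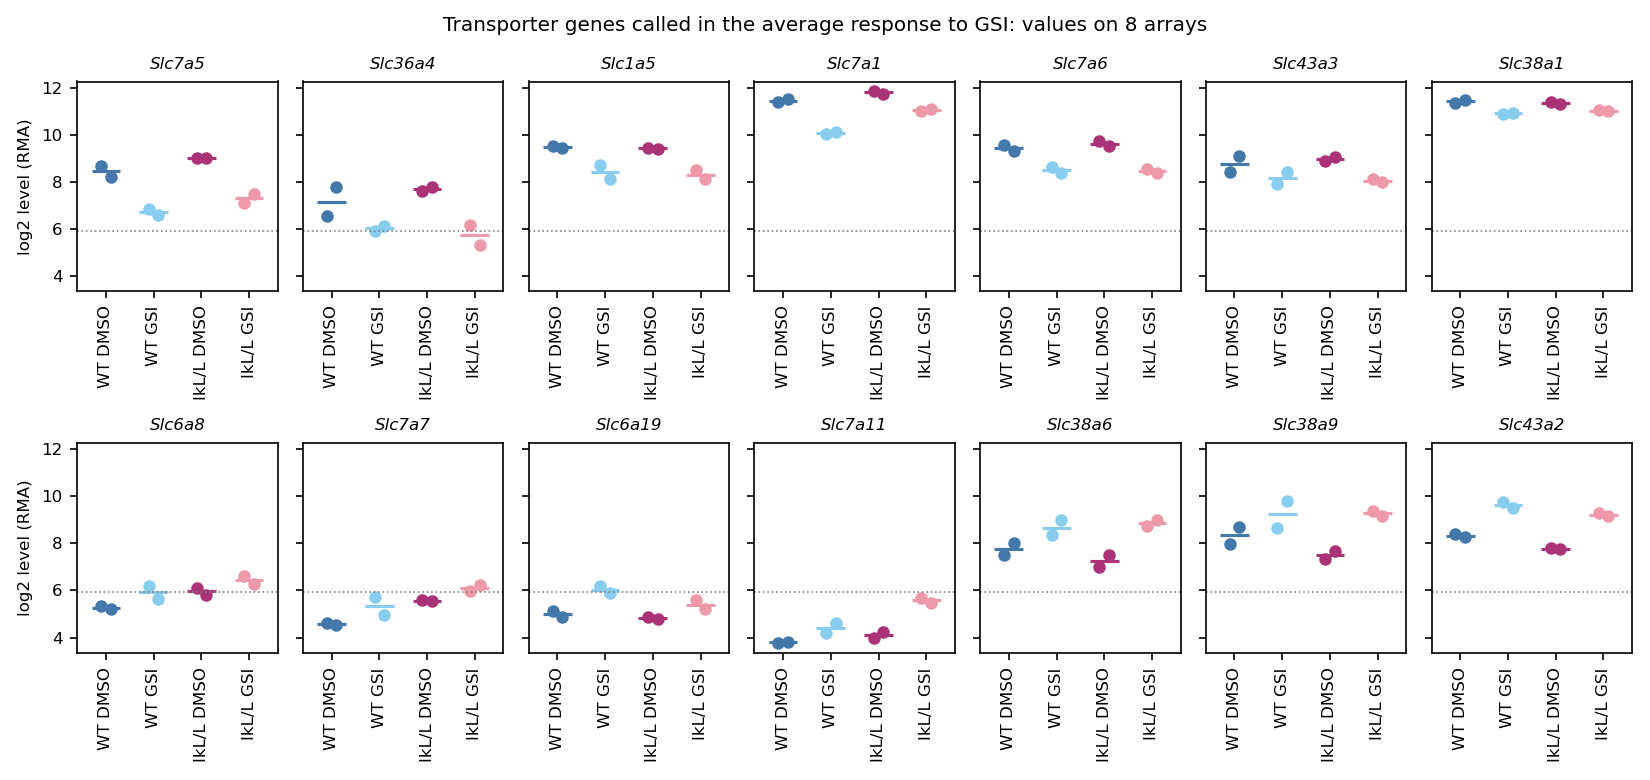
Log2 RMA level of the 14 transporter genes called in the average response to GSI (vertical axes, log2; one panel per gene). Points are single arrays in the 4 groups, bars are means of 2, and the dotted line is the background gauge. The 7 genes of the upper row are lower under GSI and the 7 of the lower row higher, and Slc7a11 stays below the gauge on every array.

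Slc7a5 encodes the light chain of LAT1, which exchanges glutamine for leucine and other large neutral amino acids. It read 8.68 and 8.22 under DMSO and 6.87 and 6.61 under GSI in WT, and 9.04 and 9.0 under DMSO and 7.10 and 7.51 under GSI in IkL/L. Every GSI array lay below every DMSO array. Slc7a5 fell by 1.71 ± 0.17 on average (3.28-fold, adjusted p = 0.000423), by 1.71 ± 0.23 in WT (adjusted p = 0.0108) and by 1.72 ± 0.23 in IkL/L (adjusted p = 0.00269). The difference between these responses was -0.01 (95% interval -0.77 to 0.75). The array has 1 probe set for this gene.

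Slc3a2 encodes CD98, the heavy chain that Slc7a5, Slc7a6, Slc7a7 and Slc7a11 proteins need to reach the cell surface. Its values were 10.32 and 9.47 under DMSO and 9.59 and 8.52 under GSI in WT, and 10.43 and 10.17 under DMSO and 9.41 and 9.77 under GSI in IkL/L. The WT groups overlapped and the IkL/L groups did not. In both genotypes each GSI array read below the DMSO array of its own number, though the labels do not pair the numbers. The average difference of -0.77 ± 0.27 did not pass the test (adjusted p = 0.0798, 95% interval -1.40 to -0.15).

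Slc7a6 encodes y+LAT2, a light chain that exchanges cationic for neutral amino acids. It read 9.57 and 9.33 under DMSO and 8.65 and 8.39 under GSI in WT, and 9.72 and 9.54 under DMSO and 8.56 and 8.36 under GSI in IkL/L. No GSI array reached a DMSO array of either genotype. The average fall was 1.05 ± 0.14 in log2 units, or 2.07-fold (adjusted p = 0.00127), and a second probe set of the gene gave -1.31. Slc7a6 passed the test in WT (-0.93, adjusted p = 0.0306) and in IkL/L (-1.17, adjusted p = 0.00561). With the GAPDH covariate the WT call was lost.

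Slc7a7, which encodes the related light chain y+LAT1, read 4.64 and 4.55 under DMSO and 5.72 and 4.96 under GSI in WT, and 5.58 and 5.55 under DMSO and 5.96 and 6.22 under GSI in IkL/L. Its IkL/L GSI mean was above the background gauge and the other 3 group means below it. Slc7a7 rose by 0.64 ± 0.17 on average (1.55-fold, adjusted p = 0.0273), a call that held in 2 of the 8 fits that each left out 1 array. A second probe set, near background, gave 0.01, and the mean over both probe sets was not called. The difference between genotypes under DMSO was 0.97 ± 0.24 and did not pass the test (adjusted p = 0.113).

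Slc7a1 encodes CAT1, the main carrier of arginine and lysine in many dividing cells. It read 11.39 and 11.51 under DMSO and 10.04 and 10.14 under GSI in WT, and 11.86 and 11.75 under DMSO and 11.02 and 11.09 under GSI in IkL/L. The 4 groups did not overlap, and the lowest values were those of WT GSI. Slc7a1 fell 2.57-fold in WT (-1.36 ± 0.13, adjusted p = 0.0049) and 1.68-fold in IkL/L (-0.75 ± 0.13, adjusted p = 0.00636). A second detected probe set of the gene fell alongside, at -1.11 on average, while another lay near background at -0.09.

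Slc1a5 encodes ASCT2, a sodium-dependent exchanger of glutamine and other small neutral amino acids. In WT, values of 9.52 and 9.46 under DMSO stood against 8.73 and 8.12 under GSI, and in IkL/L 9.46 and 9.39 against 8.52 and 8.11. The DMSO arrays of both genotypes lay within a narrow band and every GSI array was below it. Slc1a5 fell 2.13-fold on average (-1.09 ± 0.17, adjusted p = 0.00289), with -1.07 in WT (adjusted p = 0.0404) and -1.11 in IkL/L (adjusted p = 0.0171). With the GAPDH covariate the average call held, and the calls in WT and in IkL/L were lost. A second probe set gave a smaller average difference of -0.34. The related carrier Slc1a4 (ASCT1, for serine and alanine) had values of 4.82 to 6.70, and its average difference of -0.55 did not pass the test (adjusted p = 0.13).

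The neutral carrier Slc38a1 (SNAT1), which takes up glutamine with sodium, read 11.37 and 11.48 under DMSO and 10.88 and 10.94 under GSI in WT, and 11.38 and 11.33 under DMSO and 11.04 and 11.02 under GSI in IkL/L. The DMSO arrays differed little among themselves and all lay above the GSI arrays. The fall was the smallest among the 14 called genes, at 0.42 ± 0.09 or 1.34-fold (adjusted p = 0.00929). It passed in WT (-0.51, adjusted p = 0.0467) and not in IkL/L (-0.33, adjusted p = 0.114). A second detected probe set had the opposite order, with -0.32 in WT and -0.82 in IkL/L. The WT call was lost with the mean over both probe sets, so the difference between genotypes depended on the probe set. Without the first IkL/L DMSO array the average call of Slc38a1 was lost. Its paralog Slc38a2 (SNAT2), a carrier known to be raised by amino acid shortage, read 11.37 and 11.85 under DMSO and 11.62 and 11.98 under GSI in WT, and 11.67 and 11.77 under DMSO and 12.13 and 12.08 under GSI in IkL/L. The Slc38a2 difference of 0.29 ± 0.13 did not pass the test (adjusted p = 0.163, 95% interval -0.01 to 0.59). Its WT groups overlapped, although each GSI array read above the DMSO array of its own number.

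Slc38a6, another member of the sodium-coupled neutral family, read 7.51 and 8.03 under DMSO and 8.37 and 8.98 under GSI in WT, and 6.99 and 7.52 under DMSO and 8.76 and 9.003 under GSI in IkL/L. Within each genotype both GSI arrays were above both DMSO arrays. Slc38a6 rose by 1.26 ± 0.21 on average (2.40-fold, adjusted p = 0.00359), by a called 3.09-fold in IkL/L (adjusted p = 0.00793) and by 0.90 in WT, which was not called (adjusted p = 0.123). The test of the difference between these responses did not pass (0.73, adjusted p = 0.87). With the GAPDH 3' minus 5' difference as a covariate the average was not called (adjusted p = 0.0629). A second probe set of Slc38a6, near background, gave -0.03 on average.

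Slc38a9 encodes a lysosomal carrier that reports arginine to mTORC1. It read 7.97 and 8.71 under DMSO and 8.66 and 9.82 under GSI in WT, and 7.34 and 7.68 under DMSO and 9.36 and 9.19 under GSI in IkL/L. The WT groups overlapped and the IkL/L groups were well apart. In both genotypes each GSI array read above the DMSO array of its own number, though the labels do not pair the numbers. Slc38a9 rose 2.51-fold on average (1.33 ± 0.28, adjusted p = 0.00962) and 3.40-fold in IkL/L (adjusted p = 0.0177), while the WT difference of 0.90 was not called (adjusted p = 0.237). All 7 probe sets of the gene had positive average differences, from 0.44 to 1.33. With the GAPDH covariate the average call was lost (adjusted p = 0.273), and the IkL/L call as well.

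The largest mean rise belonged to Slc43a2 (LAT4), a facilitated carrier of branched-chain amino acids, phenylalanine and methionine. It read 8.41 and 8.26 under DMSO and 9.75 and 9.51 under GSI in WT, and 7.81 and 7.75 under DMSO and 9.29 and 9.16 under GSI in IkL/L. Every GSI array lay above every DMSO array, in the opposite direction to Slc7a5. The rise was 2.58-fold on average (1.37 ± 0.13, adjusted p = 0.000381), with 1.30 in WT (adjusted p = 0.0114) and 1.44 in IkL/L (adjusted p = 0.00197), and the gene's 3 probe sets gave 1.17 to 1.40. The relative Slc43a3, now known as a carrier of purine bases, read 8.42 and 9.10 under DMSO and 7.93 and 8.41 under GSI in WT, and 8.89 and 9.08 under DMSO and 8.13 and 7.99 under GSI in IkL/L. Within each genotype its groups did not overlap, narrowly so in WT. Slc43a3 fell by 0.75 ± 0.19 on average (1.69-fold, adjusted p = 0.0234), was called in neither genotype alone, and kept the average call in 3 of the 8 fits without 1 array. Slc43a1 (LAT3) had values of 6.83 to 7.77 and an average difference of 0.28 that did not pass the test (adjusted p = 0.232).

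Slc36a4 encodes PAT4, a carrier of proline and tryptophan. It read 6.54 and 7.79 under DMSO and 5.93 and 6.14 under GSI in WT, and 7.61 and 7.78 under DMSO and 6.17 and 5.32 under GSI in IkL/L. Both GSI groups lay near the background gauge and below the DMSO groups. Slc36a4 fell 2.90-fold on average (-1.53 ± 0.29, adjusted p = 0.00644) and 3.84-fold in IkL/L (adjusted p = 0.0146), and the WT difference of -1.13 was not called (adjusted p = 0.16). The IkL/L GSI mean of 5.75 was below the gauge, so that these folds may understate the difference. Slc36a1 (PAT1), a lysosomal relative, had values of 6.29 to 7.12 and a difference of 0.07 that did not pass the test (adjusted p = 0.856).

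Slc7a11 encodes xCT, which imports cystine in exchange for glutamate and so supplies cysteine for glutathione. It read 3.77 and 3.82 under DMSO and 4.21 and 4.61 under GSI in WT, and 3.97 and 4.25 under DMSO and 5.67 and 5.49 under GSI in IkL/L. Both IkL/L GSI arrays stood above all 6 others, although all 8 values were below the background gauge, where fold changes are compressed. Slc7a11 rose 2.06-fold on average (1.04 ± 0.12, adjusted p = 0.000682) and 2.77-fold in IkL/L (1.47 ± 0.16, adjusted p = 0.0014), and the WT difference of 0.62 was not called (adjusted p = 0.0663). A second probe set, also near background, gave 0.51.

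Slc6a19 encodes B0AT1, a sodium-dependent neutral carrier best known from gut and kidney. It read 5.12 and 4.89 under DMSO and 6.19 and 5.88 under GSI in WT, and 4.89 and 4.77 under DMSO and 5.58 and 5.21 under GSI in IkL/L. Its highest group mean, in WT GSI, was just above the background gauge and the others below. Slc6a19 rose 1.74-fold on average (0.80 ± 0.13, adjusted p = 0.00327) and 2.04-fold in WT (adjusted p = 0.02), and the IkL/L difference of 0.56 was not called (adjusted p = 0.0723). A second probe set of Slc6a19, near background, gave 0.34 on average. The creatine carrier Slc6a8 read 5.33 and 5.22 under DMSO and 6.18 and 5.65 under GSI in WT, and 6.12 and 5.83 under DMSO and 6.61 and 6.29 under GSI in IkL/L. Within each genotype both GSI arrays were above both DMSO arrays, and both WT means were below the background gauge. Slc6a8 rose 1.47-fold on average (0.56 ± 0.16, adjusted p = 0.0334), a call kept in 1 of the 8 fits without 1 array, and a second probe set near background gave -0.01.

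Among the brightest probe sets were also Slc6a6, the taurine carrier, and Slc38a10, a little-studied relative of the glutamine carriers. Slc6a6 read 10.30 and 10.15 under DMSO and 10.53 and 10.60 under GSI in WT, and 10.30 and 10.07 under DMSO and 10.19 and 10.00 under GSI in IkL/L. Slc38a10 read 10.43 and 10.65 under DMSO and 10.79 and 11.19 under GSI in WT, and 10.42 and 10.39 under DMSO and 10.67 and 10.52 under GSI in IkL/L. The IkL/L groups of Slc6a6 overlapped, and the other groups of each genotype were apart. Neither gene was called: the average differences were 0.13 for Slc6a6 (adjusted p = 0.522, 95% interval -0.14 to 0.39) and 0.32 for Slc38a10 (adjusted p = 0.11, 95% interval 0.03 to 0.60). The remaining genes above background were Slc7a4, the lysosomal glutamine carrier Slc38a7, the glutamine carrier Slc38a3, the glycine carrier Slc6a9, the noradrenaline carrier Slc6a2 and Slc6a17. Their average differences lay between -0.16 for Slc7a4 and 0.17 for Slc38a7, and none passed the test. The 31 uncalled genes near background ranged from -0.21 for Slc7a15 to 0.50 for Slc7a2.

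Seen within each genotype, 7 of 58 transporter genes were called in WT, 2 higher and 5 lower (12.1%, against 6.47% of all genes). Over all genes 2.31% were called higher and 4.16% lower in WT. In IkL/L 9 transporter genes were called, 4 higher and 5 lower (15.5%, against 16.8% of all genes, with 7.7% higher and 9.09% lower). Both comparisons called Slc7a5, Slc7a1, Slc7a6 and Slc1a5 as lower and Slc43a2 as higher. Calls in WT rested on few arrays, since without the first WT DMSO array 0 of the 7 were called by limma (12 members at an unadjusted p under 0.05) and without the second 2 were, and leaving out any single IkL/L array left 3 or 4. In IkL/L, 3 were called without the first DMSO array, 6 without the second DMSO array, 8 without the first GSI array and 4 without the second. Slc43a2, Slc7a11 and Slc7a5 kept their IkL/L calls in all 8 such fits. Of the 14 genes called on average, 10 were called in all 8 fits without 1 array, and these were Slc1a5, Slc36a4, Slc38a6, Slc38a9, Slc43a2, Slc6a19, Slc7a1, Slc7a11, Slc7a5 and Slc7a6. With the GAPDH covariate, Slc38a6 and Slc38a9 lost the average call, Slc1a5 its call in both genotypes, Slc7a6 in WT and Slc38a9 in IkL/L. The stromal covariate gave 15 called transporters in each genotype, while the share of all genes rose to 17.41% in WT and 28.62% in IkL/L.

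**Figure D3:**
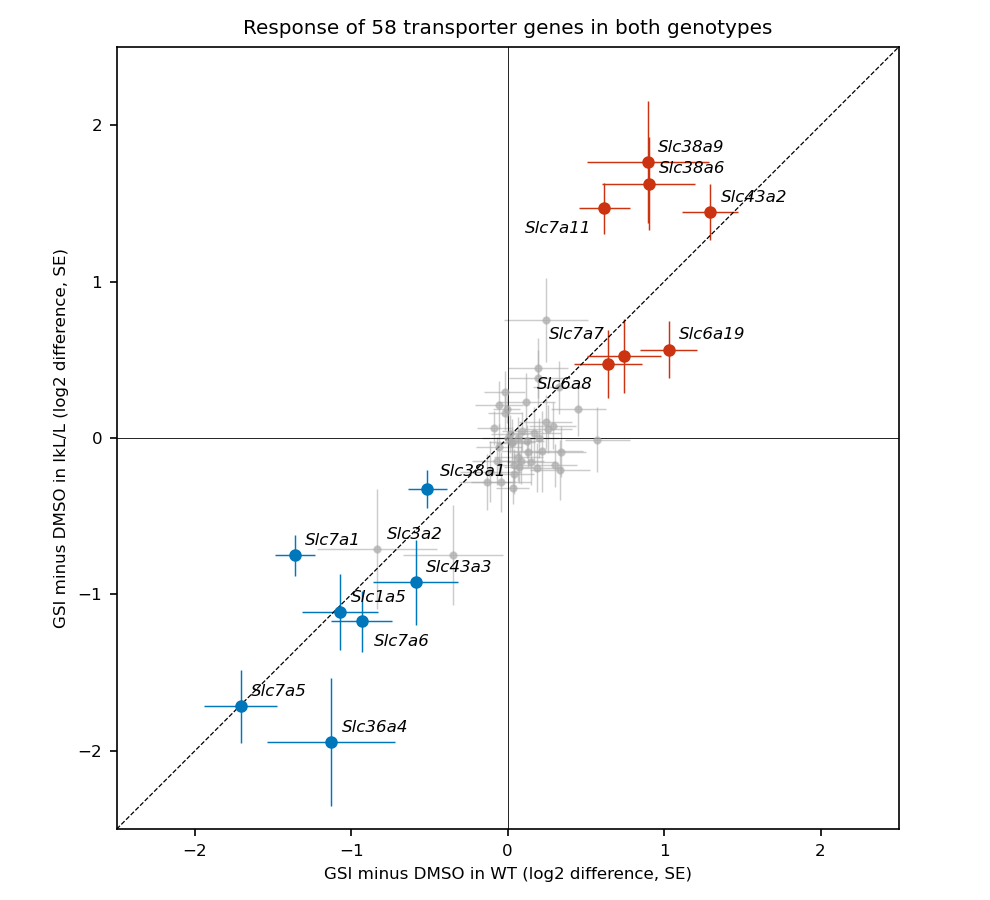
Response to GSI of the 58 transporter genes, as the log2 difference GSI minus DMSO in WT (horizontal axis) and in IkL/L (vertical axis), with bars of 1 SE. Blue points fell and red points rose in the average over both genotypes, grey points were not called, and the dashed line marks equal responses. Slc7a1 fell by 1.36 in WT and 0.75 in IkL/L, and Slc7a11 differed by 0.62 and 1.47.

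Between genotypes under DMSO, 0 of 58 transporter genes were called by limma (6 at an unadjusted p under 0.05), against 1.74% of all genes. With the GAPDH covariate 5 were called under DMSO and 7 under GSI (5.84% and 4.36% of all genes), and with the stromal covariate 3 and 4 (4.72% and 4.61% of all genes). Without covariates, 2 were called under GSI, both higher in IkL/L (3.4%, against 1.46% of all genes, with 0.945% of all genes higher), and these were Slc7a1 and Slc7a11. Slc7a1 was 1.95-fold higher in IkL/L GSI than in WT GSI (0.97 ± 0.13, adjusted p = 0.0102), after a DMSO difference of 0.36 that was not called (adjusted p = 0.35), and its second detected probe set gave 0.80 under GSI. Slc7a11 was 2.25-fold higher (1.17 ± 0.16, adjusted p = 0.0136), after 0.32 under DMSO (adjusted p = 0.618). Both calls were lost without either IkL/L GSI array and in a fit of the WT GSI and IkL/L GSI arrays alone. The Slc7a1 call was also lost with the mean over its 3 probe sets (0.67, adjusted p = 0.107), and the Slc7a11 call without both WT arrays numbered 1 (0.97, adjusted p = 0.0543).

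Whether the response to GSI itself differed between genotypes was tested by the interaction, which called 0 of 58 transporter genes by limma (4 at an unadjusted p under 0.05), against 0.044% of all genes. The interaction was 0.61 ± 0.18 for Slc7a1 (adjusted p = 0.667) and 0.85 ± 0.23 for Slc7a11 (adjusted p = 0.595). Several marker lists had genes called higher for GSI in IkL/L, against 7.7% of all genes. These were 3 of 8 B, 2 of 8 natural killer and innate lymphoid, 1 of 5 later thymocyte and 2 of 12 DN3 markers. In the DN3 list 2 markers were called lower and in the later thymocyte list 1. Of 20 stromal and 5 erythroid markers 0 were called. Markers of myeloid and dendritic cells moved with the IkL/L GSI group as well. Their mean per array was 4.78 to 5.21 under DMSO, 5.51 and 5.29 in WT GSI, and 6.27 and 6.24 in IkL/L GSI. Of 14 measured myeloid and dendritic markers, 6 were called higher both for GSI in IkL/L and for genotype under GSI. Over all genes 7.7% and 0.945% were called higher in these comparisons. The 6 markers were H2-Aa, Cd74, Lyz1, Lyz2, S100a8 and S100a9. H2-Aa read 10.19 and 10.04 in IkL/L GSI and 4.81 to 6.50 elsewhere, and Lyz1 10.22 and 10.64 against 6.98 to 8.82. S100a9 and 8 others of the 14 stayed near background in every group, among them Itgam, Mpo, Elane, Csf1r and Cd14. The part of these cells in the values of Slc7a11, Slc7a1 and Slc7a7 was not tested.

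Promoter sequences could be matched by gene ID for 41 of the 58 genes, with 62 starts, and for 9 of the 14 called genes. The 250 bases before each start were searched on both strands for the E-box CACGTG, which MYC binds, the amino acid response element TGATGNAA, which ATF4 binds, and GTGGGAA, the core bound by RBPJ, the partner of Notch. Over all 32851 promoters these stood in 6.02%, 3.45% and 5.42%, and matches of different motifs did not overlap in the transporter promoters. An E-box stood before 9 of the 62 transporter starts and none of the called genes' 16, the amino acid response element before 4 starts, and the RBPJ core before 6. Slc7a11 and Slc7a1 are printed because they differed between genotypes under GSI, and Slc6a19 because it was the called gene with an RBPJ core. The sequences are from RefSeq on GRCm38.p6, minus strand, and capitals mark the matches.
Slc7a11, chr3:50443614-50443863: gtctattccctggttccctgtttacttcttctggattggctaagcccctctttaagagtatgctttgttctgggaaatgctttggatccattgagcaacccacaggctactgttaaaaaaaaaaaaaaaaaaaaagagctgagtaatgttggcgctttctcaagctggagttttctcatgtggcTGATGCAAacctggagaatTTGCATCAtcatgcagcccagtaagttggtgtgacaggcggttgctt
Slc7a1, chr5:148399905-148400154: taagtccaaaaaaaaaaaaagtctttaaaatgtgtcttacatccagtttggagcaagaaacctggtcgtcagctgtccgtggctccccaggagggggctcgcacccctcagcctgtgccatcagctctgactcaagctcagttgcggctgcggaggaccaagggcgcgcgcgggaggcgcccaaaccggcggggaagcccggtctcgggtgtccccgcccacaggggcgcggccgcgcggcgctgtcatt
Slc6a19, chr13:73692637-73692886: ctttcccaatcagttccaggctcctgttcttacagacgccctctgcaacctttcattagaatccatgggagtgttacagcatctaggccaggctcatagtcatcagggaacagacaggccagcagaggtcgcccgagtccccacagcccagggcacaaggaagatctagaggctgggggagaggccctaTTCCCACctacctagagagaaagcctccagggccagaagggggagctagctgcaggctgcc
Slc7a11 held the amino acid response element once on each strand, with first bases 66 and 47 bases before the start. Slc6a19 held the RBPJ core on the opposite strand, 61 bases before the start, and the Slc7a1 window held none of the 3 motifs. Slc7a7 was the other called gene with an amino acid response element. Slc7a5, Slc1a5, Slc38a1, Slc43a3 and Slc6a8 had no entry. A match is a description of the letters and no evidence of binding.

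Genes that use or sense amino acids were counted from lists chosen by function, with earlier results of these data known. The shares set beside those of all genes are therefore descriptive. In the list of amino acid breakdown and use, 11 of 29 measured genes were lower and 1 higher under GSI on average (median -0.15, against -0.002 over all genes), while 12.5% of all genes were called lower and 10.8% higher. Srm, the spermidine synthase, fell 8.66-fold (-3.12 ± 0.23), from 10.61 to 11.47 under DMSO to 7.36 to 8.68 under GSI. Bcat1, which transfers the amino group of branched-chain amino acids, fell by 2.54 ± 0.25, and Bckdhb of branched-chain breakdown fell by 1.42 ± 0.15. Gcsh of the glycine cleavage system fell by 2.11 ± 0.16. These 4 genes were picked by smallest p among the called ones. Each was lower on every GSI array than on every DMSO array, a separation that the picking favours. The GSI means of Bcat1 (4.97 and 4.61) lay below the background gauge, where differences are compressed. Without the first IkL/L GSI array 7 of the list were lower, and with the GAPDH covariate 7 were lower and 4 higher.

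In the list of the amino acid starvation response, 6 of 23 measured genes were lower and 1 higher (30.4%, against 23.3% of all genes, median -0.06). The lower ones named by the smallest p were enzymes of serine and folate metabolism: Shmt2 fell by 2.43 ± 0.18, Psat1 by 1.82 ± 0.17, Psph by 1.22 ± 0.19 and Mthfd2 by 2.17 ± 0.33. Atf4 itself read -0.43 ± 0.17 on average and was not called (adjusted p = 0.119). With the GAPDH covariate 5 of the list were lower and 4 higher, and with the stromal marker level as a covariate 9 were lower.

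**Figure D4:**
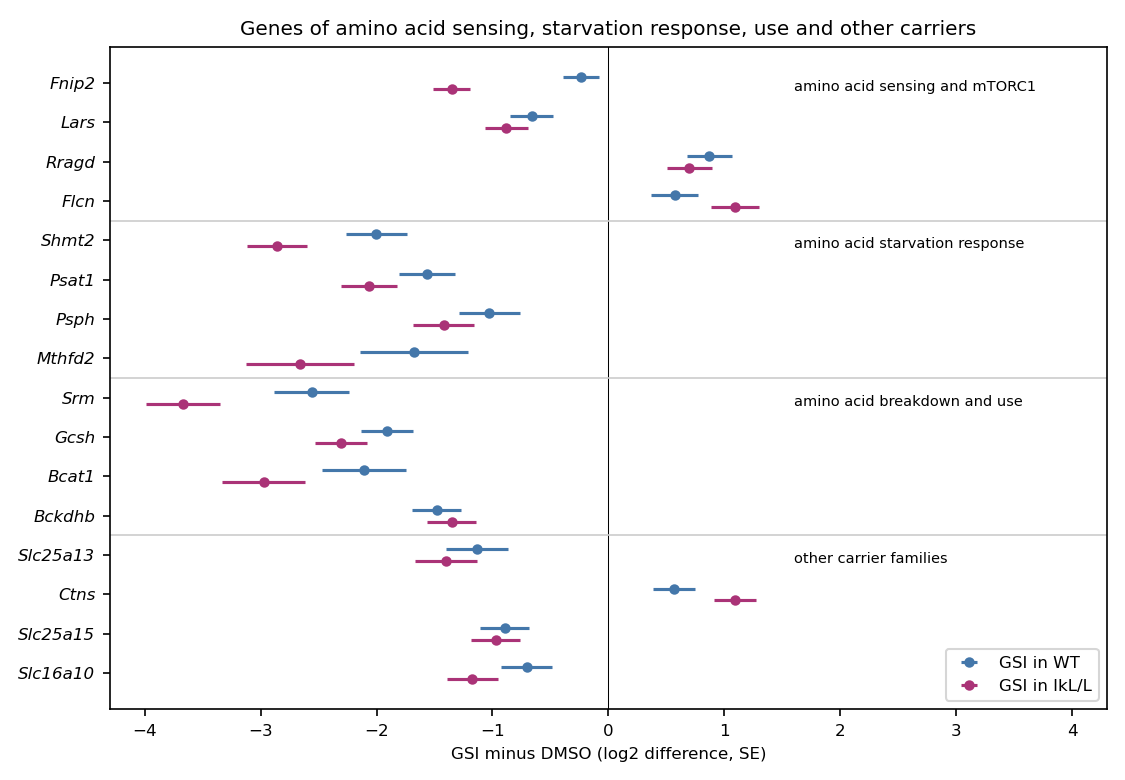
Response to GSI of 16 genes from 4 lists of amino acid sensing, starvation response, use and other carriers (horizontal axis, log2 difference GSI minus DMSO; bars, 1 SE), in WT and IkL/L. The genes shown were picked from each list as the called ones of smallest p in the average response. The 4 genes of breakdown and use and the 4 of the starvation response lie below 0 in both genotypes. In each of these lists 1 gene was called higher and is not shown, and most genes of each were not called.

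Of 36 measured genes of amino acid sensing and mTORC1, 7 were higher and 6 lower on average (36.1%, against 23.3% of all genes, median 0.07). Flcn, whose product acts on the GTPases RagC and RagD at the lysosome, rose by 0.83 ± 0.14, and Rragd, which encodes RagD, rose by 0.78 ± 0.14. Lars, the leucyl-tRNA synthetase, fell by 0.77 ± 0.13. Fnip2, a partner of folliculin with values of 3.84 to 5.51 near background, had an average difference of -0.80 ± 0.11 that was called, with -1.35 in IkL/L (adjusted p = 0.00152) and -0.24 in WT, which was not called (adjusted p = 0.472). Under DMSO it was higher in IkL/L than in WT by 1.05 (adjusted p = 0.0181), and the interaction did not pass the test (adjusted p = 0.337). Without the first IkL/L DMSO array the list had 3 higher and 4 lower genes, without the second IkL/L DMSO or the second IkL/L GSI array 3 and 6, without the first WT DMSO array 4 and 5, and with the GAPDH covariate 5 and 1.

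Among 22 measured amino acid and peptide carriers of other families, 2 were higher and 3 lower (median -0.05), a share of 22.7% that was close to the 23.3% of all genes and is no result about the list. Slc16a10, a uniporter of aromatic amino acids, fell by 0.94 ± 0.16, and the mitochondrial carriers Slc25a13 (aspartate and glutamate) and Slc25a15 (ornithine) fell by 1.27 ± 0.19 and 0.93 ± 0.15. Ctns, the lysosomal cystine exporter, rose by 0.83 ± 0.13, from values of 4.45 to 5.04 under DMSO to 5.30 to 5.79 under GSI, all below the background gauge. The GAPDH covariate left 5 higher and 1 lower gene in this list. Myc, a known regulator of several amino acid carriers, fell by 2.57 ± 0.40 on average (adjusted p = 0.00279). It fell by 3.53 in IkL/L (adjusted p = 0.00496), while the WT difference of -1.61 was not called (adjusted p = 0.149). The interaction for Myc did not pass the test (-1.92, adjusted p = 0.822), and its 2 IkL/L GSI arrays were far apart, at 8.09 and 6.14.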

How the data were processed

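The deposited log2 values were made by the authors with RMA, per the submitters' processing notes, and were used as deposited; the RMA version and genome build are not given in the sources used here. Groups came from sample titles. Probe sets naming several genes or none were left out and the brightest probe set of each gene was kept. A linear model with limma (version 3.58.1, run under R 4.3.3), moderated by eBayes along the mean-variance trend, was fitted on all 8 arrays and 18193 genes with the 4 groups as terms (4 residual and 4.11 prior degrees of freedom), with two-sided tests, Benjamini-Hochberg adjustment over all genes and calls under 0.05. Values are log2 differences ± moderated SE. The fit was also run on simulated data, in which the noise of each array was independent and few genes were changed. Some of the real arrays share deviations and many genes were called, so the simulation does not check the p-values in that setting.

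The members and gene lists were chosen with earlier results of these data known. Described array by array were members called in any contrast or among the 10 brightest. From each list up to 4 called genes were named by smallest p, with Myc, Atf4, Dtx1 and Ikzf1 always. These list and reference genes are given mainly by their differences. Genes outside this rule (Il2ra and the myeloid markers) were named after their values were seen. Alternatives were a replicate block, a mean over probe sets, array centring, a second quantile normalization, genes above the median, no trend, fits of the compared arrays alone, a minimum of 2-fold and each array left out. Leaving out the WT arrays numbered 1 together, and covariates for stromal markers and GAPDH were added after seeing the data. Where 1 array of a group remained, it was assumed to vary like the other groups. Marker means were computed for DN3, later thymocyte (7.16 to 8.46), stromal, B (5.23 to 5.99), myeloid, natural killer (4.61 to 5.18) and erythroid (4.78 to 5.09) lists. Python 3.11.15 was used for tables (numpy 2.4.6, pandas 2.3.3) and plots (matplotlib 3.10.9).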

Additional observations from a re-analysis of the deposited data

Results flagged for a closer look

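Slc6a17, a carrier of neutral amino acids in synaptic vesicles, and Slc6a2, the noradrenaline carrier, were flagged by the order of their arrays. Both GSI arrays lay above both DMSO arrays in WT and below them in IkL/L. GSI and DMSO arrays were apart, in either direction, for 44.0% of all genes in WT and 62.4% in IkL/L, so such separation is common. The interaction, IkL/L minus WT, was -0.38 for Slc6a17 (limma adjusted p = 0.874) and -0.24 for Slc6a2 (adjusted p = 0.928), so that neither difference between genotypes passed the test. All 8 values were close to the background gauge of 5.93, at 6.22 to 6.58 for Slc6a17 and 6.10 to 6.30 for Slc6a2. Another Slc6a17 probe set above background gave 0.18 in WT and -0.004 in IkL/L, and 1 near background gave 0.06 and 0.05. The other Slc6a2 probe sets were near background, with -0.06 to 0.14 in WT and -0.06 to 0.10 in IkL/L.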

How the results depend on the processing

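No called transporter difference reversed: 94 refits of these differences lost the call, and the others, the larger part, kept it. Over the fits without 1 array, members called numbered 10 to 16 for the average, 0 to 8 for GSI in WT, 3 to 12 for GSI in IkL/L, 0 to 1 for genotype under DMSO, 0 to 4 for genotype under GSI and 0 for the interaction. A 2-fold minimum left 9 for the average and 1 for genotype under GSI. Only the arrays compared gave 0 for GSI in WT (12 at an unadjusted p under 0.05), 16 for GSI in IkL/L, 1 for genotype under DMSO and 0 for genotype under GSI (5 unadjusted). Without both WT arrays numbered 1 the counts were 4 for WT, 16 for IkL/L and 2 for genotype under DMSO. The stromal covariate gave 15 in each genotype, 3 for genotype under DMSO and 4 under GSI, and the GAPDH covariate 5 and 7 for the genotype comparisons. For genotype under GSI, the mean over probe sets and the restriction to genes above the median level each gave 1. The cause of these changes was not tested. Counts in this section stand without the share of all genes called in the same fit, so they are no result about transporters as a class. Centring the arrays moved the median of all genes under GSI in IkL/L to -0.10.

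With the replicate number as a block, 17 members were called for the average, 10 for WT, 13 for IkL/L, 0 for genotype under DMSO, 2 for genotype under GSI and 0 for the interaction. For the average it added Slc3a2 (adjusted p = 0.0263), Slc1a4 (0.0274) and Slc7a2 (0.0198). The deviations of same-numbered arrays from their group means correlated by 0.71 between WT DMSO and WT GSI. The correlation with IkL/L DMSO was 0.58 for WT DMSO and 0.56 for WT GSI. With IkL/L GSI the correlations were -0.11 to 0.03. The labels do not say that a number pairs arrays, so the main fit did not use the numbers as pairs.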
